A study of Mus musculus with 2 samples.

Results

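This account concerns 10 genes of the fat cell: the hormone and secreted-protein genes Retn, Adipoq, Lep and Cfd, the lipid droplet genes Plin1, Plin4 and Cidec, and the genes of fat cell identity and fatty acid supply Pparg, Fabp4 and Lpl. They were taken by name, and each was read from the probe sets that the platform's annotation pairs with that gene alone. Of the 10 genes, 9 had such a probe set, 1 each, out of 19938 genes read from the arrays. Cfd, which encodes adipsin, was not analysed here. The study set the ear of mouse fetuses null for both Myf5 and Myod1 (genotype BALB/c Myf5:Myod null) against the ear of BALB/c fetuses without these mutations, both at E18.5, shortly before birth. Both genes encode regulators that set cells on the skeletal muscle path. Each genotype is represented by 1 array of total RNA, and the labels give neither the part of the ear nor the number of fetuses behind it. No difference below therefore has a replicate check, and none is a test. Myf5 read 5.25 in the double knockout, under the floor set out below, and 5.94 in the wild type, close to it. Myod1 read 6.38 in the double knockout and 6.95 in the wild type. Both mutated genes thus read lower in the double knockout, but the size of the Myf5 difference cannot be read. Whether their probes lie in the deleted sequence is not known here, and they check the labels only weakly. Over all genes the median difference was near 0, and 11 housekeeping genes had a median of 0.02.

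Fat cells store triglyceride in lipid droplets and draw it from circulating lipoproteins or make it from glucose. Pparg encodes the nuclear receptor that drives preadipocytes to become fat cells, together with transcription factors of the C/EBP family, and its targets include most of the other genes described here. Mature fat cells also act as an endocrine tissue that secretes leptin, adiponectin and, in the mouse, resistin. Late mouse fetuses already hold brown fat in depots of the neck and back, whereas white fat is laid down around and after birth.

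Promoter sequences are shown because 7 of the 8 genes measured on both arrays were higher in the double knockout, so that their start regions can be compared. RefSeq promoter windows on build GRCm38.p6, each 300 bases long from 250 before a transcript start to 50 after it, were found for 8 of the 10 genes, all but Fabp4 and Lpl, and made 11 windows in all. The windows were searched on both strands for the C/EBP motif TTGCNNAA, for the nuclear receptor motif AGGTCA, and for the direct repeat AGGTCANAGGTCA that PPARG binds with RXR, which overlaps the single motif. Windows are given for Retn, which differed most, for Lep, and for the perilipin pair Plin1 and Plin4, which differed in opposite directions. Capitals mark C/EBP motif matches, of which Retn and Plin4 have none, and positions count from the transcript start. They are written 5′ to 3′ on the gene's strand. 
Retn, chr8:3655520-3655819, plus strand: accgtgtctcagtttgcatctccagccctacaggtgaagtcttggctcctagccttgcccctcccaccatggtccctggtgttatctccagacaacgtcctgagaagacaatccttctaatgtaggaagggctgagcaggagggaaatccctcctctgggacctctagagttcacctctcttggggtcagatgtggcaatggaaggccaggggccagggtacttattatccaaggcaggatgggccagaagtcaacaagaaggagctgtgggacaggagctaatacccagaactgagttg
Lep, chr6:29059971-29060270, plus strand: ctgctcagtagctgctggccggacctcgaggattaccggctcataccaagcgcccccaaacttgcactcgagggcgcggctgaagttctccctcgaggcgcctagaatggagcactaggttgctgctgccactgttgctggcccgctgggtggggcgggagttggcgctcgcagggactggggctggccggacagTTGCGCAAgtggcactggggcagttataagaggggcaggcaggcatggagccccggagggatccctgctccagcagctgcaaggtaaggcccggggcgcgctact
Plin1, chr7:79732727-79733026, minus strand: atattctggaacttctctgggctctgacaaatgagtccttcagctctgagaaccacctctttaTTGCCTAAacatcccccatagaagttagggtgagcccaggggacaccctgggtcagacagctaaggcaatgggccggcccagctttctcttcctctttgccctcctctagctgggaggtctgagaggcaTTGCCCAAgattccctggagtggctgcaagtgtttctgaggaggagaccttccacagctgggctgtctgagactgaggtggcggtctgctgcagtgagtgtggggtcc
Plin4, chr17:56109733-56110032, minus strand: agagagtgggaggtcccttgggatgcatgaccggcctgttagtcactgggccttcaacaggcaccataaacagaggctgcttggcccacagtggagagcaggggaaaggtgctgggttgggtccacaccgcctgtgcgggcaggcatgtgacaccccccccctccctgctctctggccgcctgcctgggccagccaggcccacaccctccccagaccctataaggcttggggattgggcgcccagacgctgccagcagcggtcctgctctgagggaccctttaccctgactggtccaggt

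Lep held a C/EBP match, TTGCGCAA, at positions -55 to -48, which reads the same on both strands. Plin1 held TTGCCTAA at -187 to -180 and TTGCCCAA at -58 to -51. The following stretches show the match of Cidec and, of the matches of Pparg, the one nearest to a start. For Cidec it is TTGCTCAA at -198 to -191 in the window chr6:113434715-113435014 on the minus strand, and for Pparg it is TTTTGCAA, a match on the other strand, at -16 to -9 in the window chr6:115421816-115422115 on the plus strand, the most downstream of its 3 starts. 
Cidec: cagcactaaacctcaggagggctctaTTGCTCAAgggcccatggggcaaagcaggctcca
Pparg: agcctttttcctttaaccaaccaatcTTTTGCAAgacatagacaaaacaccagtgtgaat

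A C/EBP match was present in 4 of the 11 windows, from 4 genes, and in 10.8% of all 32851 RefSeq promoter windows of this length. The AGGTCA motif was present in 2 windows, those of the other Pparg starts, against 16.3% of all windows. The direct repeat was in 0 of the 11 windows and in 0.0396% of all windows. The letters did not sort the genes by their difference, since Retn and Adipoq, both higher in the double knockout, had no C/EBP match, and neither had Plin4, which was lower there.

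Signals are the deposited log2 values. On each array a floor was set at the median of all 35557 probe sets, which was 5.70 in the double knockout and 5.65 in the wild type, and a value below it is read only as low. A difference is the double knockout's log2 signal less that of the wild type. Among 619 genes read by several probe sets, this quantity varied between a gene's probe sets with an SD of 0.168, which measures probe noise and says nothing of the spread between fetuses. It may be too small, since some probe sets of 1 gene gave the same values, such as 10399379 and 10498313 of Pgk1. Signals of different probe sets are not compared with each other as levels of transcript. The list sums below add linear signals over probe sets, and some genes were picked for naming by highest signal. Neither ranks the genes by amount of RNA.

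Among the hormone genes, that of resistin was the furthest apart. Retn encodes a secreted protein that in the mouse comes mainly from white fat cells. Its probe set 10569870 read 8.04 in the double knockout and 6.25 in the wild type, a difference of 1.79, or 3.45-fold higher. The wild-type signal stood 0.61 above the floor, a low value: under a 75th-percentile floor the wild type is not measurable and the difference is at least 0.67, and with a pseudocount of the median signal it is 1.32. On both arrays 11626 genes passed the floor, and 2 of them differed this far towards the double knockout, Retn itself and Fezf2. This count leaves out 382 genes above the floor in the double knockout only. Some of those differed further, such as Bpifa2, by at least 6.82. The related genes Retnla, Retnlb and Retnlg, which encode resistin-like proteins, were below the floor on both arrays, with signals of 3.20, 2.79 and 4.52 in the double knockout and 3.07, 2.79 and 5.34 in the wild type.

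Adiponectin, the product of Adipoq, is secreted by fat cells and raises the insulin sensitivity of other tissues. Adipoq (probe set 10434747) read 8.82 in the double knockout and 8.32 in the wild type, a difference of 0.50, or 1.42-fold higher. Retn thus lay 1.28 further towards the double knockout than Adipoq on the log2 scale. Leptin, the hormone that reports fat stores to the brain, was not measurable at this floor. Lep (probe set 10536789) read 5.06 in the double knockout and 4.24 in the wild type, both under the floor, and no fold is given for it.

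**Figure D1:**
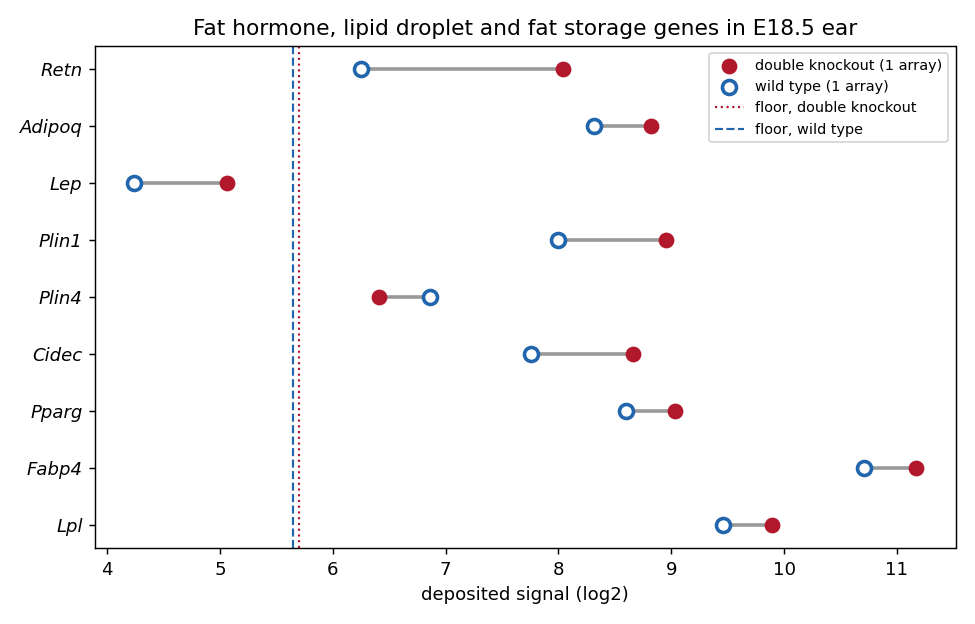
Deposited log2 signal of the 9 fat genes with a probe set, in the double knockout (filled circles) and the wild type (open circles), 1 array each. The dotted and dashed lines mark the floors at 5.70 and 5.65. Of these genes 8 lie above both floors, Lep lies below both, and Plin4 alone has its filled circle on the left.

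The droplet genes went different ways. Plin1 encodes perilipin 1, which coats the fat cell's droplet and controls the access of lipases to it. It read 8.96 in the double knockout and 7.996 in the wild type on probe set 10564795, a difference of 0.96, or 1.95-fold higher. Cidec encodes a droplet protein that passes lipid from small droplets to larger ones. It read 8.66 in the double knockout and 7.75 in the wild type on probe set 10546929, a difference of 0.91, or 1.88-fold higher. Plin1 and Cidec differed from each other by 0.05, less than the probe noise, and both stayed under 2-fold. Of the 11626 genes above both floors, 0.447% differed at least as far towards the double knockout as Plin1, and 0.568% as far as Cidec.

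Plin4 was the exception among the 8 genes. It encodes perilipin 4, a droplet protein of white fat that is also made in skeletal muscle and heart. On probe set 10451932 it read 6.41 in the double knockout and 6.86 in the wild type, a difference of -0.45, or 1.36-fold lower. With the pseudocount it was -0.28, and it lay under a floor at the 75th percentile on both arrays. Its distance from Plin1 was 1.41 on the log2 scale. Plin5, its neighbour on the chromosome and a perilipin of tissues that burn fat, read 6.62 in the double knockout and 6.27 in the wild type, a difference of 0.35, so this pair of adjacent genes lay 0.80 apart.

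The genes of fat cell identity and fatty acid supply were higher by similar amounts. Pparg (probe set 10540897) read 9.03 in the double knockout and 8.60 in the wild type, a difference of 0.43. Fabp4 encodes the fatty acid carrier of the fat cell cytosol, which capillary endothelium and macrophages make as well. It read 11.17 in the double knockout and 10.71 in the wild type on probe set 10497265, a difference of 0.47. Lpl encodes lipoprotein lipase, which frees fatty acids from circulating triglyceride and is made by fat, heart, skeletal muscle and macrophages. It read 9.89 in the double knockout and 9.46 in the wild type on probe set 10572130, a difference of 0.43. In folds, Pparg was 1.35-fold, Fabp4 1.38-fold and Lpl 1.35-fold higher in the double knockout. Together with Adipoq these 4 genes, put side by side after their values were seen, spanned from 0.43 to 0.50, a range of 0.07 that is smaller than the probe noise.

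Over the 8 genes measured on both arrays the differences ran from -0.45 to 1.79, with a median of 0.48, and each exceeded 0.168 in size. Among the 11626 genes above both floors, the 5th and 95th percentiles were -0.44 and 0.40. Differences at least as far the same way were found in 3.10% of these genes for Adipoq, 3.72% for Fabp4 and 4.47% for Pparg. The shares were 4.48% for Lpl and 4.64% for Plin4. Across the 12458 genes that passed the floor on either array, the median was -0.01. The fat genes were chosen with earlier results of these data known, so their counts only describe the list. Of the 8 genes, 7 were above 0, against 48.0% of all genes. At least 1.5-fold higher in the double knockout were 3, Retn, Plin1 and Cidec, against 2.25% of all genes. At least 2-fold higher was 1, Retn, against 0.482%, and 0 were at least 2-fold lower, against 1.71%. Without Retn the median was 0.47. In whole-tissue RNA a larger number of fat cells and more RNA per fat cell cannot be told apart, and neither can be told from a difference in the tissue taken.

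**Figure D2:**
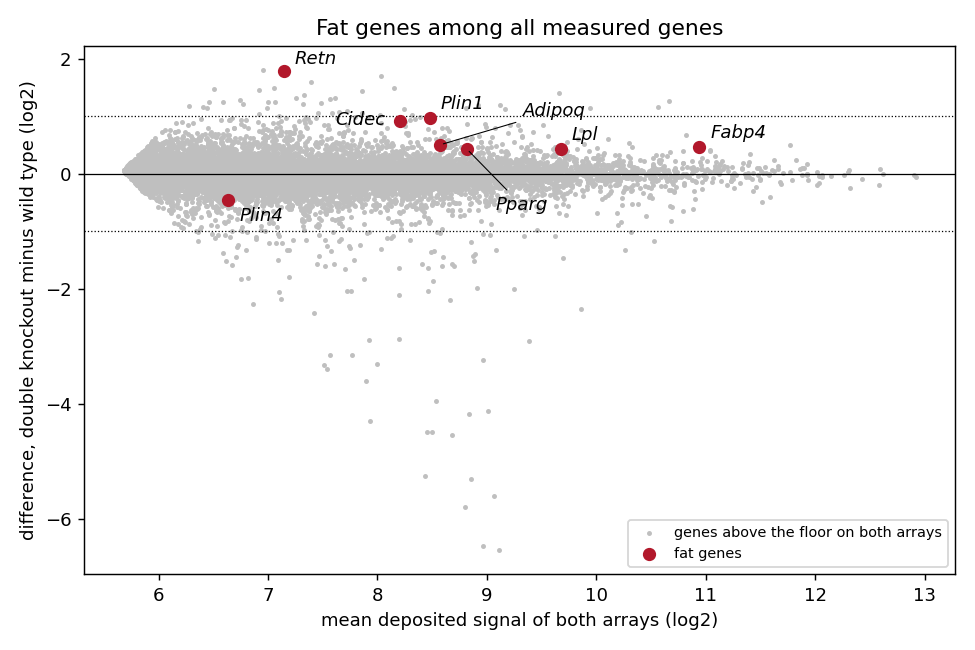
Difference in log2 signal, double knockout minus wild type, against the mean of both arrays for the 11626 genes that passed both floors (grey) and for the 8 fat genes among them (red); dotted lines mark 2-fold. Retn at 1.79 stands near the upper edge of the cloud, Plin1 and Cidec just under the upper line, and Plin4 at -0.45 below 0.

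Close relatives of these genes were compared next, as droplet proteins and fatty acid carriers come in families with different tissues. Of 17 perilipin, CIDE and fatty-acid-binding genes, including the 4 described above, 12 were above the floor, 10 of them higher and 2 lower in the double knockout, with a median of 0.38. For this list and those below, the share of all genes above 0 was 48.0%. In all these lists the sign of a difference smaller than the probe noise of 0.168 gives no direction. The shares of all genes at least 2-fold higher and lower were 0.482% and 1.71%. The perilipins of many cell types, Plin2 and Plin3, differed by 0.32 and 0.13. Cidea, the CIDE gene of brown fat, read 9.71 in the double knockout and 8.52 in the wild type, 2.29-fold higher and further apart than Cidec, while Cideb, typical of liver and gut, differed by 0.38. Fabp5, the carrier of epidermis and macrophages, differed by 0.38 and 0.33 on its probe sets, and Fabp7, the carrier of neural progenitors and glia, by 0.51. Fabp3, the carrier of heart and skeletal muscle, was the member that went the other way besides Plin4. It read 7.10 in the double knockout and 8.23 in the wild type, 2.18-fold lower, and its other probe set differed by -1.40. Fabp1, Fabp2, Fabp6, Fabp9 and Fabp12 were below the floor on both arrays.

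Other genes of the droplet and of fat breakdown were mostly higher in the double knockout, with 13 of 16 above 0, 1 at least 2-fold higher, 1 at least 2-fold lower and a median of 0.32. The gene at least 2-fold higher was Cidea. Pnpla2, the lipase that opens triglyceride breakdown, read 10.01 in the double knockout and 9.46 in the wild type, a difference of 0.54. Lipe, the hormone-sensitive lipase, named after its values were seen, differed by 0.52, and Bscl2, the seipin gene needed to form droplets, by 0.32. Cav1, of membrane caveolae, differed by -0.25. The gene at least 2-fold lower was Fitm1, a fat storage protein found chiefly in muscle. It read 4.84, under the floor, in the double knockout and 8.55 in the wild type, at least 7.23-fold lower.

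Genes that build triglyceride had 10 of 11 members above 0 and a median of 0.22. Agpat2, an acyltransferase whose loss in people causes a lack of fat tissue, was the 1 member at least 2-fold higher, with 10.51 in the double knockout and 9.37 in the wild type. Gpd1, which makes the glycerol phosphate backbone, differed by 0.68, and Dgat2, which adds the last fatty acid, by 0.71. Lpin1, a phosphatidate phosphatase named after its values were seen, differed by 0.72. Agpat3, at -0.06, was the single member below 0.

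Fatty acid uptake genes were nearer to 0. Their median was 0.09, less than the probe noise of 0.168, with 10 of 13 above 0. Of them 0 were at least 2-fold higher and 1, Fabp3, was at least 2-fold lower. Cd36, the fatty acid transporter, differed by 0.27. Angptl8, an insulin-responsive inhibitor that acts on lipoprotein lipase with its partners, read 6.43 in the double knockout and 5.93 in the wild type, the highest difference of the list at 0.49. Gpihbp1, the endothelial anchor of lipoprotein lipase, differed by 0.28. Lmf1, which helps this lipase fold, and its relative Lmf2 differed by 0.09 and -0.21. Gpihbp1 and Lmf1 were named after their values were seen.

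The transcription factors that act with PPARG had a median near 0. Of 18 above the floor, 5 were above 0, against 48.0% of all genes, 12 were below 0 and 1 was at 0. Their median was -0.04, with 0 at least 2-fold apart either way. Several of these differences, such as those of Ebf1, Rxra and Cebpa, are smaller than the probe noise of 0.168, so their signs give no direction. Ebf1 and Rxra differed by -0.01 and -0.06, and Srebf1, which turns on fatty acid synthesis, by 0.35. Rxrg, a partner receptor of PPARG that skeletal muscle also makes, read 7.28 in the double knockout and 8.06 in the wild type, the lowest difference at -0.78. Of the C/EBP genes, named after their values were seen, Cebpa differed by 0.13 and Cebpb by 0.29, and Cebpd was below the floor on both arrays. Genes of preadipocytes and of the block on fat cell formation had a median of -0.03, with 4 of 12 above 0. Dlk1, the preadipocyte factor that is also expressed in fetal muscle, read 11.38 in the double knockout and 11.79 in the wild type, a difference of -0.41. Pdgfra, of mesenchymal progenitors, differed by 0.01, Cd34 by -0.71 and Sox9 by 0.33.

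Other secreted factors were split, with 5 of 10 above 0 and a median of -0.03. Nampt, an enzyme of NAD synthesis that is also secreted, differed by 0.42, Sfrp5, a secreted Wnt antagonist, by -0.06 and Rbp4, the retinol carrier, by 0.00. Lcn2, a lipocalin of fat, neutrophils and epithelia, read 6.41 in the double knockout and 7.61 in the wild type, 2.30-fold lower. Receptors for fat hormones and metabolites had 2 of 9 above 0 and a median of -0.26. The adiponectin receptors Adipor1 and Adipor2 differed by -0.15 and 0.27, and Cdh13, which binds adiponectin on vessels and muscle, by -0.67. Aplnr, the apelin receptor, differed by -0.26. Hcar1, the lactate receptor of fat cells, differed by 0.53. Lepr, the leptin receptor, named after its values were seen, differed by -0.26.

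**Figure D3:**
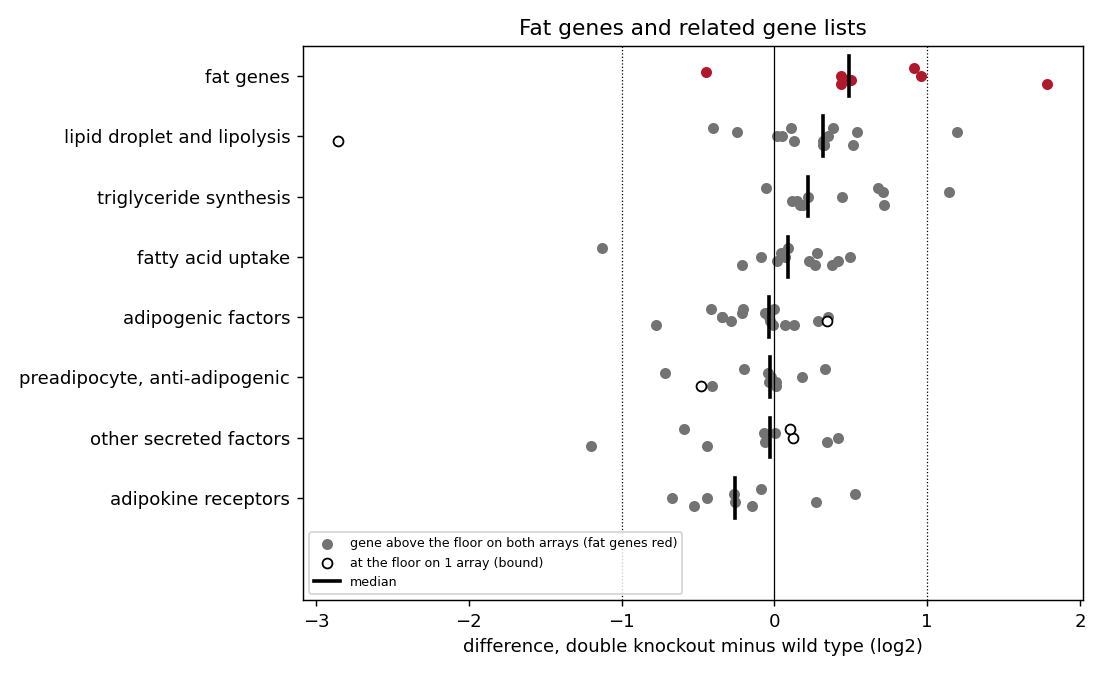
Difference in log2 signal, double knockout minus wild type, for the 8 measured fat genes (red) and for 7 lists of related genes, 1 point per gene, with the list median as a bar and dotted lines at 2-fold. Open points are bounds. Medians run from 0.48 for the fat genes and 0.32 for droplet and lipolysis genes to -0.26 for the receptors.

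Markers of other cell types differed as well, some by far more than the fat genes, and their part in the differences was not tested. Each of 12 skeletal muscle markers was lower in the double knockout by more than 2-fold, with a median of -5.28, and summed linear signals of 658.4 in the double knockout and 26125 in the wild type (here and below, sums run over the genes above the floor on either array, with lower values set to the floor). Of these markers 8 lay under the floor in the double knockout. Acta1, Tnnt3 and Ckm read 5.73, 5.90 and 6.21 in the double knockout, against 12.19, 11.69 and 11.51 in the wild type. Salivary gland markers lay the other way, 8 of 9 at least 2-fold higher, with summed signals of 11261 in the double knockout and 652.4 in the wild type, and Bpifa2 at 12.47 in the double knockout and 4.09 in the wild type. Smgc and Prol1 read 11.05 and 10.07 in the double knockout, against 3.89 and 3.13 in the wild type. Of the salivary markers 7 were under the floor in the wild type only, and Dcpp2 on both arrays.

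Brown fat cells share most of the fat genes described here. Of 12 brown fat markers above the floor, 9 were above 0, and 2, Ucp1 and Cidea, were higher by 2-fold or more. Their median was 0.17, with summed signals of 8308 in the double knockout and 5533 in the wild type. Ucp1, the uncoupling protein, read 11.29 in the double knockout and 10.03 in the wild type, and Cox8b and Cox7a1 differed by 0.30 and 0.26. The summed signal of the 8 fat genes was 5485 in the double knockout and 3743 in the wild type, a ratio of 1.47, and that of the brown fat markers had a ratio of 1.502. Bright probe sets weigh most in such sums. In the double knockout Fabp4 held 2310 of the fat gene sum, and Ucp1 held 2511 of the brown fat sum. The medians were 0.48 for the fat genes and 0.17 for the brown fat markers, which ran from -0.29 to 1.26. Skeletal muscle also makes some of these markers, such as Cox8b and Cox7a1, and its own markers were far lower in the double knockout. The part of muscle in the brown fat median was not tested, so the medians do not rank fat genes against brown fat. Elovl3 was under the floor on both arrays, and Cidea, Prdm16, Ppargc1a and Ebf2 also stand in the other lists.

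Fabp4 is also made by capillary endothelium and macrophages, and Lpl by macrophages, so the markers of both cell types are given. Of 10 endothelial markers, 5 were above 0, with a median of -0.01 and summed signals of 4688 in the double knockout and 4613 in the wild type; Emcn, Cdh5 and Eng differed by 0.21, -0.02 and 0.06. Of 9 macrophage markers above the floor, 0 were above 0, with a median of -0.29 and summed signals of 1798 in the double knockout and 2157 in the wild type; Csf1r, C1qb and Mrc1 differed by -0.29, -0.32 and -0.28, and Cd163 was under the floor on both arrays.

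Cortical neuron markers were all above 0, 8 of 8, with a median of 0.97 and summed signals of 1204 in the double knockout and 565.5 in the wild type. Neurod2, Fezf2 and Bcl11b differed by 1.08, 1.80 and 0.86, and 4 of the 8 were under the floor in the wild type. Sebocyte and epidermal markers had a median of 0.29 over 7 genes, with summed signals of 1742 in the double knockout and 1385 in the wild type, and Awat2, Scd3 and Lor under the floor on both arrays. Of the 7, 2 were at least 2-fold higher: the keratin genes Krt1 and Krt10 of differentiating epidermis, under the floor in the wild type, were at least 3.67-fold and at least 3.43-fold higher in the double knockout. Krt5, Elovl4 and Krt14 differed by 0.05, 0.29 and -0.33. Schwann cell markers had a median of -0.21 over 6 genes, with summed signals of 3075 in the double knockout and 3603 in the wild type; Pmp22, Cnp and Sox10 differed by -0.24, -0.35 and -0.05, and Ncmap was under the floor on both.

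**Figure D4:**
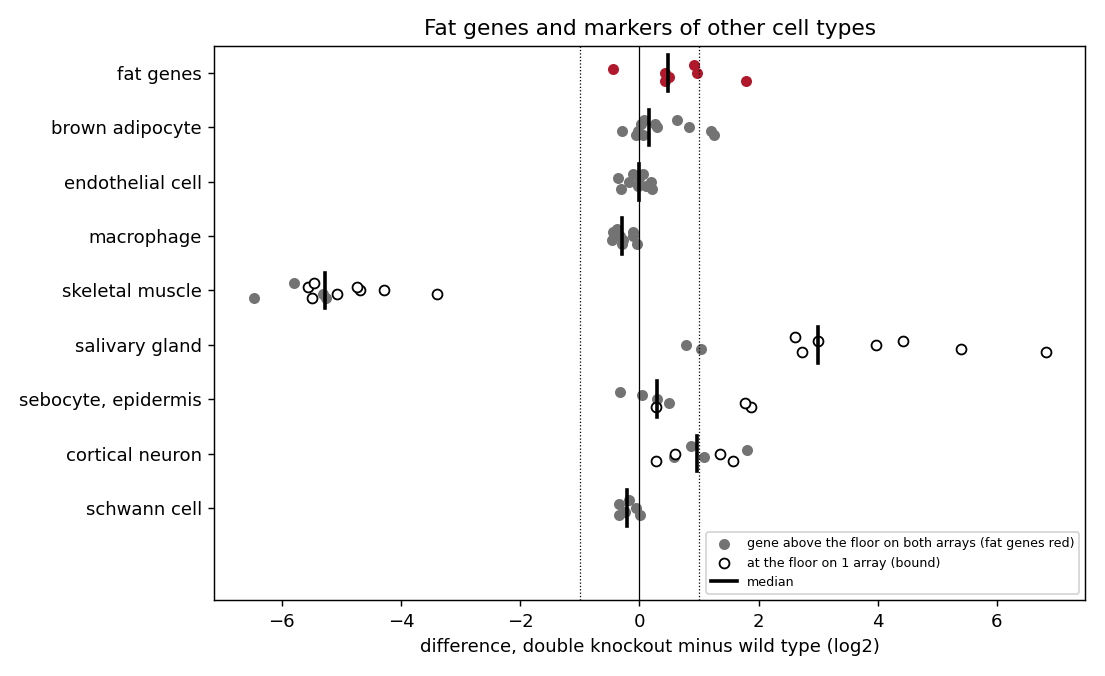
Difference in log2 signal, double knockout minus wild type, for the 8 measured fat genes (red) and for 8 lists of cell type markers, 1 point per gene, with the list median as a bar and dotted lines at 2-fold; open points are bounds. Muscle markers have a median of -5.28 and salivary markers of 3.001, while endothelial markers centre on -0.01 and macrophage markers on -0.29.

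Neighbouring genes gave the local background. Up to 3 protein-coding genes on either side of each of the 10 genes were taken from the RefSeq gene order, and 38 of them were above the floor. Their median was 0.09, with 27 above 0, against 48.0% of all genes, and a range from -0.10 to 0.63. This median and several of the differences are smaller than the probe noise of 0.168, so their signs give no direction. Of the neighbours 0 were at least 2-fold higher or lower, against 0.482% and 1.71% of all genes. The fat gene relatives Plin5 and Fabp5, at 0.35 and 0.38, are among these neighbours. Stxbp2 and Trappc5, near Retn, differed by 0.43 and 0.08. Kif7 and Pex11a, on either side of Plin1, differed by -0.06 and 0.28, and Rpusd3 and Jagn1, on either side of Cidec, by 0.19 and 0.03. Lzts1, near Lpl, had the highest difference of the neighbours, 0.63, above the 0.43 of Lpl, and Lrg1, near Plin4, differed by 0.44. These neighbours were named after their values were seen.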

How the data were processed

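Total RNA of the fetal ear was labelled with biotin and hybridised to 1 Affymetrix array per genotype, per the labels. The deposited table holds 1 log2 value per probe set and array; its base was inferred from their spread, 0.75 to 13.26 in the double knockout and 0.81 to 13.27 in the wild type. MAS5 is named in the submitters' processing notes, without a version. The probe sets look like those of a whole-transcript array, so the method behind the values is uncertain. Background treatment, scaling between arrays and genome build were not given in the sources used here. Signals were identical on both arrays for 1227 probe sets (3.45%).

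The platform annotation, possibly outdated, paired 21789 of the 35557 probe sets with 1 gene, 1621 with several and 12147 with none; 21698 of the first had an Entrez identifier in the RefSeq gene table, and 0 symbols changed. The probe set of highest mean linear signal stood for a gene. Values under each array's 50th percentile were raised to it, and genes under it on both arrays have no difference. A count of genes uses 2-fold. With 1 array per genotype there is no test, no p-value and no replicate error, so the array number sets the precision. The fat genes and 17 further lists were chosen with earlier results of these data known. The text names every fat gene and its relatives, in each list the 3 genes of highest signal, those at least 2-fold apart and the largest difference each way, in marker lists the 3 of highest signal, and otherwise says so. Alternatives were 4 scalings, floors at the 25th and 75th percentile or none, a pseudocount, the median over probe sets, and 1.5-fold and 3-fold thresholds. The calculation was tested on simulated data with differences put only on genes far above the floor. That test does not check values near the floor, such as those of Retn and Plin4, or bounds. Python 3.11.15 with numpy 2.4.6, pandas 2.3.3 and statsmodels 0.14.6 was used.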

Additional observations from a re-analysis of the deposited data

How the results depend on the processing

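No paired analysis was possible because each genotype had 1 array, and for the same reason no array could be left out. Alternatives were read against the probe noise of 0.168. Adipoq, Plin1, Cidec, Pparg, Fabp4 and Lpl moved by less than that under all 9 alternatives that give a difference. Each has 1 probe set, above every floor on both arrays, so only the scalings and the pseudocount could move them. The other floors and the median over probe sets return the same values and check nothing for these genes. In each of the 9 alternatives 7 fat genes were above 0, or 8 where Lep had a difference. Retn ranged from 0.67, a bound with the floor at the 75th percentile, to 1.81, and was 1.32 with a pseudocount of the median signal; Plin4 was -0.28 with that pseudocount and could not be read with the floor at the 75th percentile. With that floor 0 fat genes were at least 2-fold higher, against 1, and the median of triglyceride synthesis genes was 0.44, against 0.22. At 1.5-fold, 3 fat genes were counted. Lep differed by 0.82 with the floor at the 25th percentile or with none, and by 0.31 with the pseudocount. Over all genes, 60 were at least 2-fold higher and 213 lower; the 75th-percentile floor gave 21 and 111, no floor 92 and 279, the pseudocount 34 and 159, and thresholds of 1.5-fold and 3-fold 280 and 451 and 16 and 120. The median over all genes stayed between -0.03 and 0.05.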
